A study of Mus musculus with 9 samples.

Results

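The genes described here encode proteins that choose which exons of a transcript are kept, together with the kinases that control the SR proteins among them. They were taken by symbol from both deposited tables: SR proteins (Srsf with a number), hnRNPs (Hnrnp), the kinase families Clk and Srpk, and the regulators Tra2, Rbfox, Nova and Celf. The rule found 51 genes among the 24015 rows of each table: 11 Srsf genes, 2 Tra2 genes, 20 hnRNP genes, 4 Clk and 3 Srpk kinase genes, 3 Rbfox genes, 2 Nova genes and 6 Celf genes. RNA came from the microdissected dentate gyrus of adult C57BL/6 mice aged 8 weeks, with a separate library per mouse. Groups E0, E1 and E4 held 3 mice apiece. The labels give neither a treatment nor a unit for the number in the group name. As known of the study, E0 is unstimulated, and E1 and E4 were taken 1 h and 4 h after electroconvulsive stimulation, which makes the granule neurons of this region fire together. No genetic change is named for any group.

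SR proteins carry an RNA-binding domain and a tail rich in arginine and serine, bind exons and usually promote their inclusion. The hnRNPs form a mixed group of RNA-binding proteins that coat new transcripts and often oppose SR proteins. Srpk kinases phosphorylate the tail in the cytoplasm, which lets SR proteins enter the nucleus, and Clk kinases phosphorylate it further in the nucleus, which releases them from their stores. Rbfox, Nova and Celf proteins shape splicing in neurons and other tissues. Many SR and hnRNP genes limit their own output by splicing in an exon that exposes the transcript to nonsense-mediated decay. The values here are totals per gene, so productive and decay-prone transcripts of a gene are counted together.

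Each table gives a mean normalised count over its libraries (mean count), a log2 fold change over E0 with its SE (standard error) and an adjusted p, with no value for a single mouse. A gene is called raised or lowered where the authors' adjusted p is below 0.05, and p-values measure the spread between these mice. Both tables use the same E0 libraries, so their values are set side by side and no agreement between them is read as support. Judged by the mean count that 1 read adds to rarely read genes, the libraries held about 6140000 to 10960000 reads in E0, 1940000 to 4760000 in E1 and 10020000 to 13550000 in E4. The shallower E1 libraries go with a larger error, a median SE of 0.230 over all genes tested in the authors' deposited table for E1 against 0.158 in that for E4. Of the activity-induced genes Fos, Arc, Npas4, Egr1 and Nr4a1, all 5 were raised in E1 and 3 in E4. All 12 granule neuron markers examined were read, with mean counts from 266.8 to 13790 in the authors' deposited table for E4.

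The share of splicing factor genes that was raised lay above that of all genes at both times. In E1 33 of the 51 were raised, 1 was lowered and 17 were not called, where 20.6% of all genes tested were raised and 15.0% lowered. In E4 31 were raised, 5 lowered and 15 not called, where 20.7% of all genes were raised and 18.3% lowered. The lowered counts were 2 in E1 with the length and GC trend taken out and 2 in E4 at an adjusted p below 0.01. Their median log2 fold change was 0.45 in E1 and 0.44 in E4, beside 0.02 and -0.01 over all genes in the authors' deposited tables. All 51 had an adjusted p in both tables, so none was lost to the authors' filter on low counts. Well-read genes are called more easily, and most of these genes are well read. Of the 34 that reached a mean count of 500 in E1, 67.6% were raised and 2.94% lowered, beside 31.7% and 25.9% of all genes that did. Of the 39 that reached it in E4, 71.8% were raised and 10.3% lowered, beside 38.2% and 22.0%. Both directions and times differed by family, as the plot of each gene's log2 fold change shows.

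**Figure D1:**
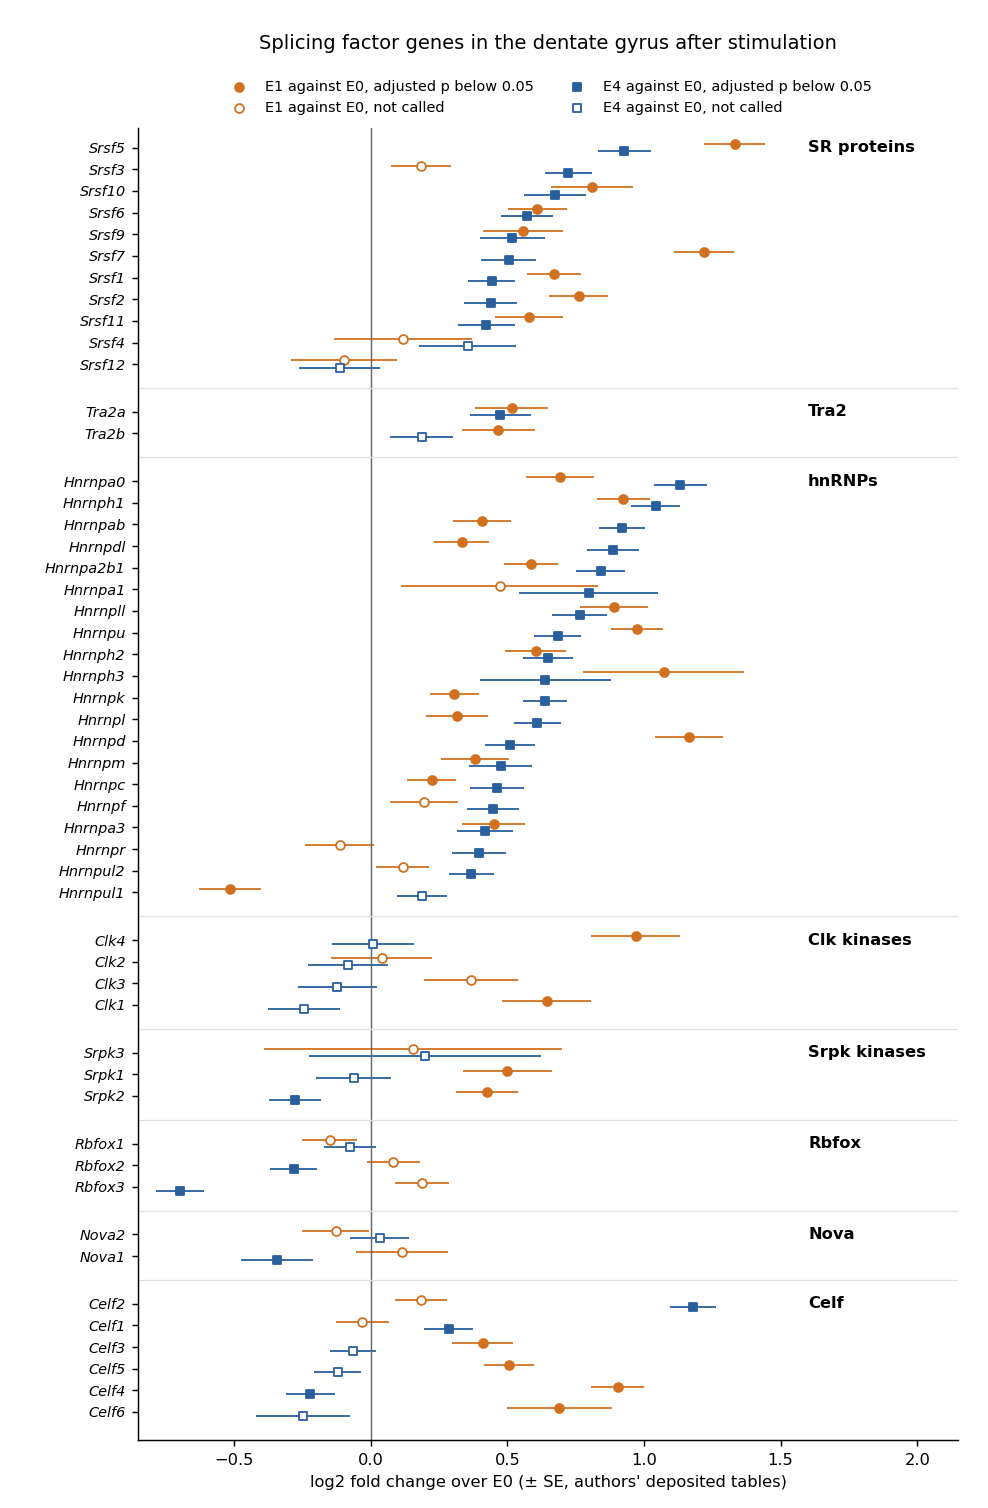
Log2 fold change over E0 (horizontal axis, bars ± SE) of the 51 genes by family, with circles for E1 and squares for E4, filled where the adjusted p was below 0.05. Srsf and hnRNP genes lie mostly to the right of 0 at both times. Clk and Srpk genes lie between 0.04 and 0.97 in E1. In E4 they lie between -0.28 and 0.20, with Srpk2 lowered and none raised.

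Most SR protein genes were raised at both times. In E1 8 of 11 (72.7%) were raised, none was lowered and 3 were not called, beside 20.6% raised and 15.0% lowered of all genes. In E4 9 (81.8%) were raised, none was lowered and 2 were not called, beside 20.7% and 18.3% of all genes. No Srsf gene was lower in either table at an unadjusted p under 0.05 by the authors' DESeq2 test. The largest rise was that of Srsf5, which stood 2.52-fold over E0 in E1 (log2 fold change 1.33 ± 0.11 SE, adjusted p = 2.84e-30) and 1.90-fold in E4 (0.93 ± 0.10, adjusted p = 6.83e-20) in the authors' deposited tables. Srsf7, an SR protein with a zinc knuckle, rose 2.33-fold in E1 (1.22 ± 0.11) and 1.42-fold in E4 (0.50 ± 0.10) in the authors' deposited tables. Both stood lower in E4 than in E1, as given below.

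The other Srsf genes moved less in E1 than Srsf5 and Srsf7. Srsf1, which helps U1 snRNP to find the 5′ splice site and has the highest mean count of the Srsf genes, rose 1.59-fold in E1 (0.67 ± 0.10) and 1.36-fold in E4 (0.44 ± 0.09) in the authors' deposited tables. Srsf2, which also acts in transcription elongation, stood at 0.76 ± 0.11 in E1 and 0.44 ± 0.10 in E4 in the authors' deposited tables. Srsf6 stood at 0.61 ± 0.11 and 0.57 ± 0.10, and Srsf10, a repressor of splicing when it loses its phosphates, at 0.81 ± 0.15 and 0.67 ± 0.11 in the authors' deposited tables. Srsf3, the smallest SR protein and a factor in mRNA export, followed another course. It was not called in E1 (0.18 ± 0.11, adjusted p = 0.190) and rose 1.65-fold in E4 (0.72 ± 0.09, adjusted p = 4.96e-16) in the authors' deposited tables.

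Srsf4 and Srsf12 were called at neither time, and they had the lowest mean counts of the family, 73.8 and 125.9 in the authors' deposited table for E1. Both are named here after their values were seen. The 2 remaining Srsf genes, Srsf9 and Srsf11, were raised at both times, with log2 fold changes between 0.42 and 0.58 in the authors' deposited tables. Tra2a and Tra2b encode SR-like proteins that bind purine-rich exon enhancers. Tra2a rose at both times, with 0.52 ± 0.13 in E1 and 0.47 ± 0.11 in E4, in the authors' deposited tables. Tra2b rose in E1 (0.47 ± 0.13, adjusted p = 0.00225) and was not called in E4 (0.19 ± 0.11, adjusted p = 0.198) in the authors' deposited tables. The E1 call of Tra2b was lost when the trend of fold change on transcript length and GC was taken out (0.15, adjusted p = 0.432).

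Nearly the whole hnRNP family was raised at the later time. In E4 19 of 20 genes were raised, none was lowered, and 20 stood above 0 at an unadjusted p under 0.05 by the authors' DESeq2 test. In E1 15 were raised, 1 was lowered and 4 were not called. The shares were 75% and 5% in E1, beside 20.6% and 15.0% of all genes. In E4 95% were raised and none lowered, beside 20.7% and 18.3% of all genes. The median log2 fold change was 0.43 in E1 and 0.64 in E4. With the trend on transcript length and GC content removed, 10 hnRNP genes were raised in E1 and 19 in E4. The calls of Hnrnpa3, Hnrnpc, Hnrnpdl, Hnrnph2 and Hnrnpk were the ones lost in E1.

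The hnRNP genes with the smallest adjusted p in E4 included 3 that were also called higher in E4 than in E1, Hnrnpa0, Hnrnpab and Hnrnpdl. Hnrnpa0, an intronless gene whose product binds AU-rich mRNAs, rose 1.62-fold in E1 (0.69 ± 0.13) and 2.19-fold in E4 (1.13 ± 0.10, adjusted p = 2.82e-30) in the authors' deposited tables. Hnrnpab, a binder of transport signals in neuronal mRNAs, stood at 0.41 ± 0.11 in E1 and 0.92 ± 0.08 in E4, and Hnrnpdl at 0.33 ± 0.10 and 0.89 ± 0.09, in the authors' deposited tables. Hnrnpa2b1, which binds such signals in dendritic mRNAs, stood at 0.59 ± 0.10 and 0.84 ± 0.09 in the authors' deposited tables, and the difference was not called (adjusted p = 0.120). Hnrnph1, a binder of G-rich elements, was raised at both times, 1.90-fold in E1 (0.92 ± 0.10) and 2.06-fold in E4 (1.04 ± 0.09), in the authors' deposited tables.

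Of the genes with the smallest adjusted p in E1, only Hnrnpd was called lower in E4 than in E1. Hnrnpd, also called AUF1, binds AU-rich elements and steers mRNA decay, and it rose 2.24-fold in E1 (1.16 ± 0.12, adjusted p = 1.92e-19) and 1.42-fold in E4 (0.51 ± 0.09) in the authors' deposited tables. Hnrnpu, a nuclear scaffold protein with the highest mean count of the family, stood at 0.98 ± 0.10 in E1 and 0.69 ± 0.09 in E4 in the authors' deposited tables. Hnrnpll, known for the switch of CD45 exons in T cells, stood at 0.89 ± 0.12 and 0.76 ± 0.10 in the authors' deposited tables. For Hnrnpu and Hnrnpll the difference between the times was not called (adjusted p = 0.0616 and 0.577). Hnrnpul1 was the single hnRNP gene lowered, to 0.701 of its E0 level in E1 (-0.51 ± 0.11, adjusted p = 4.51e-05), and was not called in E4 (0.19 ± 0.09, adjusted p = 0.0878) in the authors' deposited tables.

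Most SR protein kinase genes were raised in E1, and none was in E4. Of 7 kinase genes 4 were raised and 3 not called in E1, all with a log2 fold change above 0. In E4 none was raised, also at an unadjusted p under 0.05 by the authors' DESeq2 test, 1 was lowered and 6 were not called. In E1 57.1% were raised and none lowered, beside 20.6% and 15.0% of all genes. In E4 none was raised and 14.3% lowered, beside 20.7% and 18.3% of all genes. With only 7 genes the E4 counts are not read as a departure from those shares. Clk4 rose 1.96-fold in E1 (0.97 ± 0.16, adjusted p = 3.05e-08) and lay at its E0 level within error in E4 (0.01 ± 0.15, adjusted p = 0.975) in the authors' deposited tables. The 95% interval of its E4 value ran from -0.29 to 0.30. Clk1, its closest relative, stood at 0.64 ± 0.16 in E1 (adjusted p = 0.000422) and -0.24 ± 0.13 in E4 (adjusted p = 0.130) in the authors' deposited tables. Clk3 (0.37 ± 0.17, adjusted p = 0.0812) and Clk2 (0.04 ± 0.19, adjusted p = 0.897) were not called in E1 in the authors' deposited table. Clk3 was called raised in E1 once the length and GC trend was taken out (0.50, adjusted p = 0.0126). In E4 neither was called, at -0.12 ± 0.15 and -0.08 ± 0.15 in the authors' deposited table.

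Srpk1, widely expressed, rose in E1 (0.50 ± 0.16, adjusted p = 0.00861) and was not called in E4 (-0.06 ± 0.14) in the authors' deposited tables. Srpk2, the more highly read, rose 1.34-fold in E1 (0.43 ± 0.11, adjusted p = 0.000881) and was lowered to 0.826 of its E0 level in E4 (-0.28 ± 0.10, adjusted p = 0.0131) in the authors' deposited tables. The E1 value of Srpk2 was -0.0041 (adjusted p = 0.984) with the trend on length and GC content removed, so its early rise depends on that choice. Srpk3, a kinase gene of muscle, was hardly read, with mean counts of 5.62 and 10.32 and no call at either time in the authors' deposited tables.

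The neuronal regulators went separate ways. Of the 11 Rbfox, Nova and Celf genes, 4 were raised and none lowered in E1, and 2 were raised and 4 lowered in E4. The E1 shares were 36.4% and none, beside 20.6% and 15.0% of all genes. In E4 they were 18.2% and 36.4%, beside 20.7% and 18.3%, so the share raised lay near that of all genes. At an unadjusted p under 0.05 in the DESeq2 test none of them was lower in E1 either. All 4 early rises were in Celf3 to Celf6. Celf4, a brain Celf protein that binds the 3′ ends of synaptic mRNAs, rose 1.87-fold in E1 (0.90 ± 0.10, adjusted p = 4.25e-19) and was lowered to 0.858 in E4 (-0.22 ± 0.09, adjusted p = 0.0372) in the authors' deposited tables. The E4 call of Celf4 was lost with the trend on genomic span removed (adjusted p = 0.0504). Celf5 stood at 0.51 ± 0.09 in E1 and -0.12 ± 0.09 in E4, Celf3 at 0.41 ± 0.11 and -0.06 ± 0.08, and Celf6 at 0.69 ± 0.19 and -0.25 ± 0.17, in the authors' deposited tables. None of these 3 was called in E4.

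Celf2 and Celf1, the more widely expressed members, had the opposite timing. Celf2 was not called in E1 (0.18 ± 0.10, adjusted p = 0.123) and rose 2.27-fold in E4 (1.18 ± 0.08, adjusted p = 4.18e-42), the smallest adjusted p of the 51 genes in the authors' deposited table for E4. Celf1 stood at -0.03 ± 0.10 in E1 and 0.29 ± 0.09 in E4 (adjusted p = 0.00609) in the authors' deposited tables. Its E4 call was lost with the trend on length and GC content removed (adjusted p = 0.0528).

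Rbfox3 encodes NeuN, the nuclear protein used to mark mature neurons. It was not called in E1 (0.19 ± 0.10, adjusted p = 0.135) and was lowered to 0.617 of its E0 level in E4 (-0.70 ± 0.09, adjusted p = 3.21e-14) in the authors' deposited tables. Rbfox2 stood at 0.08 ± 0.10 in E1 and was lowered in E4 (-0.28 ± 0.09, adjusted p = 0.00376) in the authors' deposited tables. Rbfox1 was called at neither time (-0.15 ± 0.10 and -0.08 ± 0.09 in the authors' deposited tables). With the trend on length and GC content removed, Rbfox1 was lowered (-0.33, adjusted p = 0.00556) and Rbfox3 raised (0.29, adjusted p = 0.0144) in E1, and with a trend on genomic span removed Rbfox1 was lowered (-0.29, adjusted p = 0.0146). Nova1 was lowered in E4 (-0.34 ± 0.13, adjusted p = 0.0275) and Nova2 was not called there (0.03 ± 0.11) in the authors' deposited tables. Neither Nova gene was called in E1.

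Fewer cells of a type and less RNA per cell cannot be told apart in bulk tissue, which bears on genes of neurons such as Rbfox3. Some markers of cell types were called as well. In E1 6 of 12 interneuron markers were raised and none lowered (7 and none at an unadjusted p under 0.05 by DESeq2), 8 of 12 granule neuron markers were lowered and 2 raised, and 6 of 10 astrocyte markers were lowered. Of 9 microglial markers 3 were lowered in E1, and of 8 endothelial markers 3 were raised. Of 10 oligodendrocyte markers 1 was raised and 2 lowered in E1, and none was called in E4 (1 lower at an unadjusted p under 0.05 by DESeq2). Of all genes tested 20.6% were raised and 15.0% lowered in E1. In E4 4 granule markers were raised and 6 lowered, 2 interneuron markers were raised and 1 lowered, and 1 of 10 astrocyte markers went each way. Of all genes 20.7% were raised and 18.3% lowered in E4. The interneuron shares of 16.7% and 8.33% and the astrocyte shares of 10% each way lie below those. None of these markers had a mean count of 0 in either table. Their part in the values of the splicing factor genes was not tested.

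The difference between E4 and E1 was tested for 50 of the 51 genes, all but Srpk3, as the E4 log2 fold change minus the E1 value over their combined error. Of these, 9 stood higher in E4 than in E1, 13 lower, and 28 were not called, where 17.7% of 12769 genes were higher and 19.0% lower. The shares of 18% and 26% lie close to those of all genes for the higher calls and above them for the lower ones. The test takes the errors of both tables as independent. With an assumed correlation of 0.5 between them, 14 genes were higher and 19 lower, among them 11 hnRNP genes higher and 4 Srsf genes lower. The correlation that the shared E0 libraries give was not estimated. That setting also called more of all genes, 26.3% higher and 26.5% lower. The hnRNP and kinase genes differed in which way they went. Among hnRNP genes 6 were higher in E4 and 1 lower (30% and 5%). Of the 6 kinase genes tested 4 (66.7%) were lower and none higher (5 and none at an unadjusted p under 0.05). Among Srsf genes 1 was higher and 2 lower, shares of 9.09% and 18.2% that do not exceed those of all genes.

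The kinases that were lower were Clk4 (difference -0.96 ± 0.22 SE, adjusted p = 0.000106), Clk1 (-0.89 ± 0.21, adjusted p = 0.000137), Srpk2 (-0.70 ± 0.15) and Srpk1 (-0.56 ± 0.21). Celf4 had the largest drop of the 50, at -1.12 ± 0.13 (adjusted p = 8.18e-16), and Celf2 the largest gain, at 0.996 ± 0.13 (adjusted p = 1.79e-13). Thus the Celf family held both ends of the range. Rbfox3 was lower by a difference of -0.88 ± 0.13 (adjusted p = 5.24e-10). Among the Srsf genes Srsf7 (-0.71 ± 0.15) and Srsf5 (-0.40 ± 0.15) were lower and Srsf3 (0.54 ± 0.14) higher. Hnrnpd (-0.65 ± 0.15) was the hnRNP gene that was lower, and Hnrnpul1 (0.70 ± 0.15) had the largest gain of that family, followed by Hnrnpdl (0.55 ± 0.14) and Hnrnpab (0.51 ± 0.14).

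**Figure D2:**
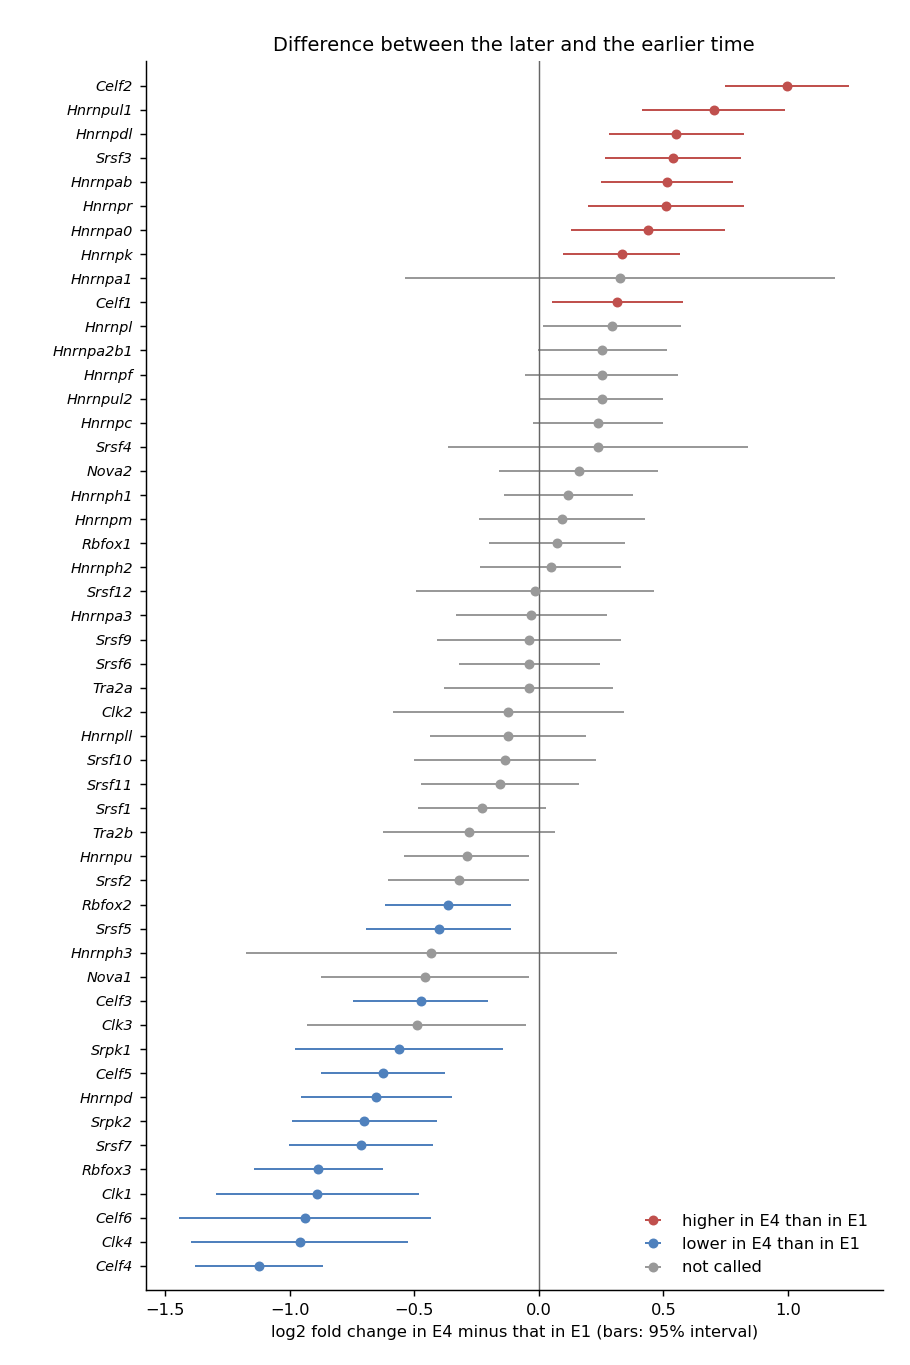
Difference of the log2 fold changes, E4 minus E1 (horizontal axis), with 95% intervals not adjusted for the number of genes, for 50 genes in order of the difference. The 9 genes higher in E4 include Celf2 and 6 hnRNP genes, and the 13 lower ones include 4 kinase genes and Celf3 to Celf6.

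The rest of the splicing machinery was described with 4 gene lists. The core spliceosome holds the proteins of the small nuclear particles and the helicases that drive the reaction. Of its 63 genes 11 were raised, 15 lowered and 37 not called in E1, shares of 17.5% and 23.8% beside 20.6% and 15.0% of all genes. In E1 7 were raised with the length and GC trend taken out, and 9 were lowered at an adjusted p below 0.01. In E4 38 (60.3%) were raised, none was lowered (none at an unadjusted p under 0.05 by DESeq2) and 25 were not called. Of all genes 20.7% were raised and 18.3% lowered in E4. The median log2 fold change of the list was -0.15 in E1 and 0.34 in E4. Between E1 and E4 23 of 62 stood higher in E4 and 4 lower, shares of 37.1% and 6.45% beside 17.7% and 19.0% of all genes.

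Sf3b1, the branch-site factor, rose 2.27-fold in E1 (1.18 ± 0.09) and 1.64-fold in E4 (0.72 ± 0.09) in the authors' deposited tables. Prpf38b (1.57 ± 0.13) and the branch-point binder Sf1 (0.93 ± 0.12) were also raised in E1, while the Sm protein gene Snrpd2 (-0.80 ± 0.17), Prpf19 (-0.55 ± 0.12) and Sf3b2 (-0.39 ± 0.10) were lowered, in the authors' deposited table for E1. Both Sart3 (0.68 ± 0.10) and Snrpa1 (0.87 ± 0.14) were raised in E4, in the authors' deposited table.

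Other splicing regulators resembled the 51 genes in their counts. In E1 30 of 55 tested were raised and 2 lowered, and in E4 33 of 54 were raised and 4 lowered, with medians of 0.39 and 0.35. The shares were 54.5% and 3.64% in E1, beside 20.6% and 15.0% of all genes. In E4 they were 61.1% and 7.41%, beside 20.7% and 18.3% of all genes. Sfpq, a splicing factor of paraspeckles, stood at 1.07 ± 0.11 in E1 and 1.23 ± 0.10 in E4 in the authors' deposited tables. Pspc1, its paraspeckle partner, was not called in E1 (0.36 ± 0.16) and rose 2.58-fold in E4 (1.37 ± 0.11) in the authors' deposited tables. Mbnl1, a regulator of developmental splicing, rose 2.60-fold in E1 (1.38 ± 0.14), and the helicase gene Ddx5 stood at 0.87 ± 0.08, in the authors' deposited table for E1. Pabpn1 stood at 1.11 ± 0.12 in E1 and 0.73 ± 0.09 in E4 in the authors' deposited tables. Lowered genes included Rbm24, at -1.50 ± 0.22 in E1 and -1.11 ± 0.14 in E4, and, in E4, Pcbp4 (-0.78 ± 0.13), in the authors' deposited tables. Elavl2, a neuronal Hu protein gene, was raised in E1 (1.52 ± 0.19) and lowered in E4 (-0.72 ± 0.21) in the authors' deposited tables. Khdrbs1, which encodes Sam68, went the other way, lowered in E1 (-0.46 ± 0.11) and raised in E4 (0.45 ± 0.09) in the authors' deposited tables.

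The 13 other kinases, phosphatases and importers of SR proteins had 6 raised and 5 lowered genes in E1 and 6 raised and none lowered in E4 (1 lower at an unadjusted p under 0.05 by DESeq2). The E1 shares were 46.2% and 38.5%, beside 20.6% and 15.0% of all genes. In E4 46.2% were raised and none lowered, beside 20.7% and 18.3% of all genes. In E1 3 of the 13 were raised with the length and GC trend taken out, and 2 were lowered at an adjusted p below 0.01. Dyrk3, a kinase that dissolves nuclear and stress-linked condensates, rose 2.26-fold in E1 (1.18 ± 0.17) and 3.87-fold in E4 (1.95 ± 0.13, adjusted p = 1.53e-46) in the authors' deposited tables. No Clk or Srpk gene was called raised in E4. Dyrk1a stood at 0.49 ± 0.11 in E1 and 0.62 ± 0.10 in E4, and the phosphatase subunit gene Ppp1cc at 0.50 ± 0.10 in E1, in the authors' deposited tables. Ppm1g (-0.60 ± 0.13), Ppp1r8 (-0.66 ± 0.18), Ppp1r10 (-0.40 ± 0.14) and Ppp1ca (-0.31 ± 0.11) were lowered in E1, in the authors' deposited table. Ppp1r10 and Ppp1ca lost that call at an adjusted p below 0.01, and Ppp1ca also with the length and GC trend taken out (-0.072, adjusted p = 0.661). Ppm1g (0.29 ± 0.10) and Ppp1r10 (0.50 ± 0.10) were raised in E4, in the authors' deposited table.

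Nonsense-mediated decay and the exon junction complex, which mark and remove the decay-prone transcripts of these genes, were described last. Of 17 genes 2 were raised and 1 lowered in E1, and 8 raised and none lowered in E4 (none at an unadjusted p under 0.05 by DESeq2). The shares in E1 were 11.8% and 5.88%, below the 20.6% and 15.0% of all genes. In E4 47.1% were raised and none lowered, beside 20.7% and 18.3% of all genes. The helicase gene Upf1 rose at both times, with 0.65 ± 0.13 in E1 and 0.66 ± 0.12 in E4, in the authors' deposited tables. Smg6 (-0.68 ± 0.16) was lowered in E1, and the exon junction genes Eif4a3 (0.60 ± 0.11) and Rbm8a (0.55 ± 0.11) were raised in E4, in the authors' deposited tables.

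**Figure D3:**
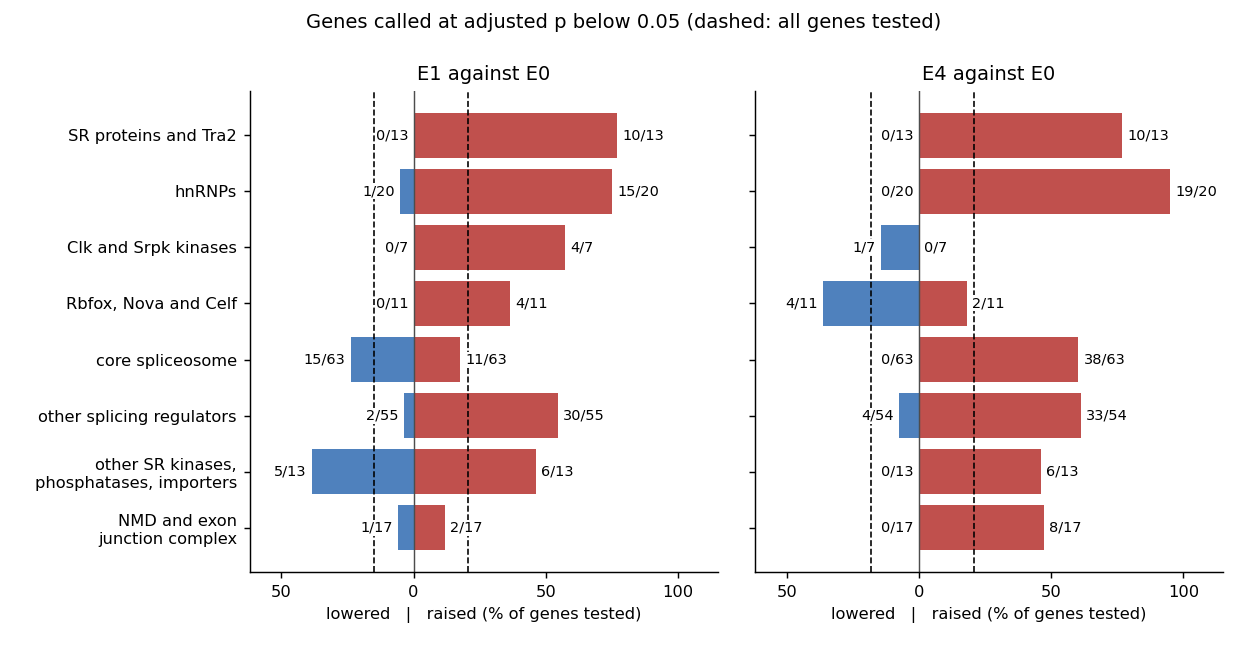
Share of genes tested that were raised (right) or lowered (left), in percent, by family and list in E1 and E4, with counts beside the bars and dashed lines at the shares over all genes. The core spliceosome has 11 raised and 15 lowered genes of 63 in E1 and 38 raised and none lowered in E4, and the Clk and Srpk kinases have 4 raised genes of 7 in E1 and none in E4.

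Levels were compared between genes per kilobase of the longest coding transcript in GENCODE vM21. In the authors' deposited table for E4 the highest mean counts per kilobase were those of Hnrnpa2b1 (2381), Rbfox1 (2171), Hnrnpk (1451) and Hnrnpc (1118). The lowest were those of Srpk3 (5.21), Hnrnpa1 (29.5) and Hnrnph3 (29.6), and the extremes are named here for their rank. Within the kinases Clk1 (365.8 per kilobase) stood above Srpk2 (202.7), Clk4 (186.2), Clk3 (160.8), Clk2 (112.9) and Srpk1 (78.4) in the authors' deposited table for E4. These levels average stimulated and unstimulated mice and have no error in the deposited tables, so neighbours in the order were not tested.

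Hnrnpa1, an abundant shuttling hnRNP in most tissues, had mean counts of only 26.17 and 56.65 in the authors' deposited tables. Of its 50-base transcript stretches 46.4% also occur in transcripts of 19 other genes, all 19 annotated as pseudogenes. How reads with several matches were counted is not given in the sources used here, so its level and its E4 rise (0.80 ± 0.25, adjusted p = 0.00598 in the authors' deposited table) are uncertain. Shared stretches exceeded 10% in 18 of the 51 genes. The largest shares were those of Hnrnpf (67.3%, 11 other genes) and Srsf4 (65.4%, 1 other gene), and Hnrnpk shared 37.8%, Srsf2 35.2%, Srsf3 31.5% and Srsf5 27.9%. Values of these genes may include or lack reads of their copies or overlapping neighbours. Low level and shared sequence did not go together throughout, since Hnrnpk was among the highest per kilobase and Hnrnph3, with 3.10% shared, among the lowest.

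**Figure D4:**
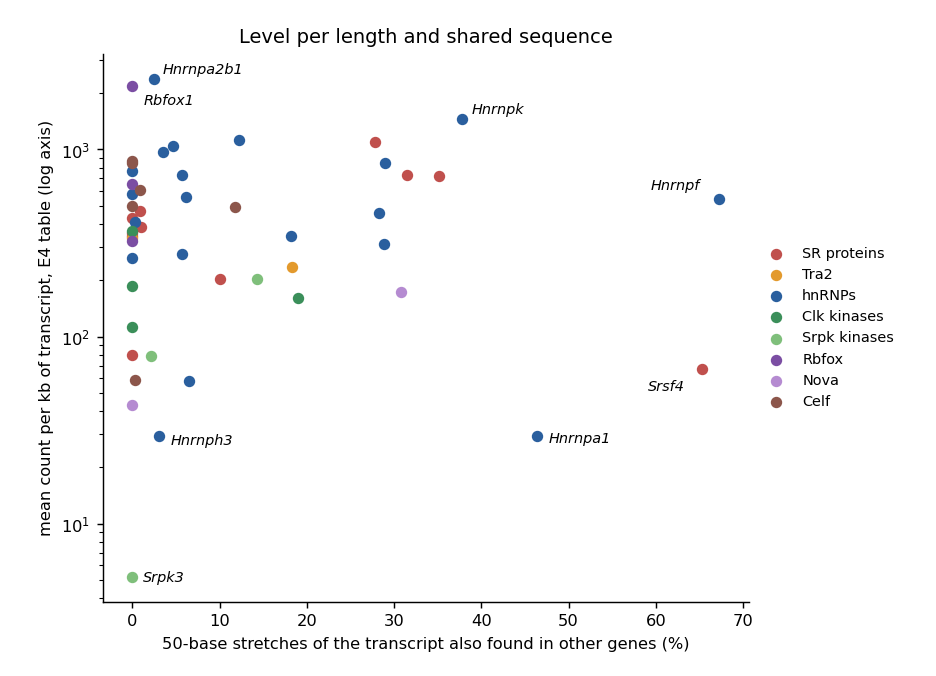
Mean count per kilobase of transcript in the E4 table (vertical log axis) against the share of 50-base transcript stretches found in other genes (horizontal axis, percent), with a point per gene coloured by family. Hnrnpa1 combines a share of 46.4% with 29.5 counts per kilobase, and Hnrnpk a share of 37.8% with 1451.

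Annotated transcript classes, which the symbol rule did not use, were also compared. In GENCODE vM21 30 of the 51 genes (58.8%) have a transcript annotated as subject to nonsense-mediated decay, beside 26.9% of 14109 coding genes tested in either table. The share was 9 of 11 among Srsf genes, 10 of 20 among hnRNP genes and 6 of 7 among the kinases, and none of the 3 Rbfox and 2 Nova genes had one. A transcript with a retained intron was annotated for 38 genes (74.5%), beside 56% of those coding genes, and for all 7 kinase genes. Clk1 and Clk4 each have 7 such transcripts, of 13 and 14 in all. The 51 genes also have more annotated transcripts, a median of 9 beside 5 for the coding genes. The part of that number in these shares was not tested. The genes are compact, with a median genomic span of 18.5 kb beside 24.8 kb, and of 7.29 kb for Srsf genes, while the 3 Rbfox genes span 229 to 1528 kb. Which transcripts changed cannot be read from totals per gene.

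Promoter sequences were examined because so many of the genes were raised together. RefSeq promoter windows on GRCm38.p6, 250 bases before to 50 after a start, matched 46 of the 51 genes. The cAMP response element (CRE), TGACGTCA, is bound by CREB, a factor that neuronal activity switches on. It was found on either strand in at least 1 window of 4 of 46 genes (8.7%), beside 3.36% of 11597 tested genes. A gene can have several windows. Counted by window it was found in 6 of the 76 windows of the 46 genes (7.89%), beside 1.79% of all 32851 windows. Those 6 windows belong to the same 4 genes, so the count by window adds no further gene. The 4 genes with it, Clk4, Tra2a, Celf3 and Celf6, are among those raised in E1, as are 33 of all 51 genes (64.7%). A link between the element and the calls was not tested. Shown are 100 bases of each promoter upstream of the start, read 5′ to 3′ along the gene with the CRE in capitals, since it is the one full activity-linked element the 4 genes share. The windows are Clk4 at chr11:51263003-51263102 (+), Tra2a at chr6:49264053-49264152 (-), Celf3 at chr3:94484173-94484272 (+) and Celf6 at chr9:59578087-59578186 (+).
Clk4: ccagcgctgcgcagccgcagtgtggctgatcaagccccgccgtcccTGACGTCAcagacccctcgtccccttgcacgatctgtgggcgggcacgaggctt
Tra2a: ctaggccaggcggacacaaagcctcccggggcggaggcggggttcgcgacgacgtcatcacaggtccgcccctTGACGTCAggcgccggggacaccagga
Celf3: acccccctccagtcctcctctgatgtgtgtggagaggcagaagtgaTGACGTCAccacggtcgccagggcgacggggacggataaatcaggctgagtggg
Celf6: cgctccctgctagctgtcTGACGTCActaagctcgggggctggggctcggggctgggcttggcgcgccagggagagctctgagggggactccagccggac
The element begins 65 bases before the start of Clk4, 27 before that of Tra2a, 139 before that of Celf3 and 232 before that of Celf6.

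The shorter motif TGACG, which every full element also contains, was present in 26 of the 46 genes (56.5%), beside 33.2% of tested genes. It occurred in 9 of 13 Srsf and Tra2 genes, 11 of 18 hnRNP genes, 3 of 6 kinase genes and 3 of 9 Rbfox, Nova and Celf genes. The AP-1 element TGANTCA was found in 3 of 46 genes (6.52%, beside 6.44% of tested genes). The Egr element GCGNGGGCG was found in 7 (15.2%, beside 11.9%), and the CArG box bound by serum response factor in 1, Hnrnpd (2.17%, beside 1.6%). A match in a window is a description of its letters and shows no binding.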

How the data were processed

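RNA-seq of 9 dentate gyrus samples, 3 each in E0, E1 and E4, grouped by sample title, was deposited as 2 tables of the authors' own comparisons. Reads were aligned with TopHat2 to mm9 and compared with DESeq2, per the submitters' processing notes. Not given in the sources used here are versions, the counting step, the annotation and strand use. The authors' deposited signal is a mean normalised count over the libraries of a comparison, per the file headers. The deposited log2 fold changes, their SEs and the score (log2 fold change over SE) are the authors' estimates, and the deposited p-value and adjusted p are two-sided normal and Benjamini-Hochberg values, recomputed here to within 9.8e-08 (score) and 3.6e-07 (adjusted p). Values per library were not used, so no count test was run.

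The genes, lists and motifs were chosen with earlier results of these data known. A gene was called at an authors' adjusted p below 0.05. E4 against E1 divided the difference of both log2 fold changes by the root of their summed squared SEs, with normal p-values adjusted over the 12769 genes whose mean count reached 10 in both tables (27 symbols turned into dates left out). The test was checked on simulated data. Errors drawn there were normal at the deposited SEs, so the normal model itself was not checked. The test takes both errors as independent although E0 is shared. Genes were named by rule: all kinases and Tra2 genes, up to 5 called each way per other family with the smallest adjusted p and a mean count of at least 50, the highest mean count, genes called in opposite directions, and up to 3 each way per list. Some genes named for one time are also given at the other, and others were named after their values were seen. Transcript length, GC, transcript classes and shared 50-base stretches came from GENCODE vM21, genomic spans and promoters from RefSeq GRCm38.p6, matched by symbol without use of mm9 coordinates. Python 3.11.15, pandas 2.3.3, numpy 2.4.6 and scipy 1.17.1 were used. Alternatives changed the threshold, the count minimum, centring, trends on length, GC or span, and the error correlation. The values of 1 gene that the rule names are not reported here.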

Additional observations from a re-analysis of the deposited data

Results flagged for a closer look

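For 22 genes the test of the difference between E4 and E1 passed an adjusted p of 0.05, on the log2 scale as E4 minus E1. Lower in E4 were Celf4 (-1.12), Clk4 (-0.96), Celf6 (-0.94), Clk1 (-0.89), Rbfox3 (-0.88), Srsf7 (-0.71), Srpk2 (-0.70), Hnrnpd (-0.65), Celf5 (-0.63), Srpk1 (-0.56), Celf3 (-0.48), Srsf5 (-0.40) and Rbfox2 (-0.36). Higher in E4 were Celf2 (0.996), Hnrnpul1 (0.70), Hnrnpdl (0.55), Srsf3 (0.54), Hnrnpab (0.51), Hnrnpr (0.51), Hnrnpa0 (0.44), Hnrnpk (0.33) and Celf1 (0.32). Celf4 and Srpk2 were called in opposite directions at the 2 times in the authors' deposited tables. The Celf1 difference was lost with the median difference subtracted (adjusted p = 0.0902) and without a minimum mean count (adjusted p = 0.0635).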

How the results depend on the processing

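No paired analysis was possible because the tables hold no value per library, and for the same reason leaving out single replicates was not run. Of the 33 genes raised in E1 25 kept their call under each of 7 alternatives that tested them, and of the 31 raised in E4 29 did. Counts of raised genes stayed within 28 to 34 in E1 and 30 to 32 in E4. The trend on transcript length and GC content moved most in E1: 28 genes raised and 2 lowered, with Hnrnpc (-0.024) and Srpk2 (-0.0041) turning to the other side of 0 without a call, 7 core spliceosome genes raised instead of 11, 3 other SR kinase, phosphatase and importer genes raised instead of 6, and 5 other splicing regulators lowered instead of 2. In E4 it gave 1 lowered gene instead of none in that kinase list. A trend on genomic span gave 2 lowered genes of the 51 in E1 instead of 1. At an adjusted p below 0.01, 2 of the 51 instead of 5 were lowered in E4 (Srpk2, Nova1 and Celf4 were lost), and 9 core spliceosome genes instead of 15 and 2 genes of the kinase list instead of 5 were lowered in E1. For E4 against E1 that threshold gave 7 other splicing regulators higher instead of 11 and 2 core spliceosome genes lower instead of 4. At a threshold of 0.1, 3 decay genes instead of 1 were lowered in E1, and for E4 against E1 7 decay genes were higher instead of 3 and 2 of the kinase list lower instead of 1. With genes under a mean count of 50 left out, at the threshold of 0.05, 2 decay genes were lowered in E1. An assumed correlation of 0.5 between the errors raised the calls of E4 against E1 to 14 higher (instead of 9) and 19 lower. With it 36 core spliceosome genes were higher instead of 23, 8 decay genes higher instead of 3 and 3 of the kinase list lower instead of 1. Over all genes the same setting gave 26.3% higher and 26.5% lower, instead of 17.7% and 19.0%. The cause of these shifts was not tested. The E1 libraries were shallower and the median SE in E1 was larger, and the part of depth in that error was not tested. Depth limits low-count genes such as Srpk3, whose error was the largest of the 51.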
